A study of Mus musculus with 23 samples.

Results

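The genes Pdx1, Ptf1a, Sox9, Hnf4a, Foxa1, Foxa2, Gata4 and Gata6, which encode transcription factors of the pancreas and foregut, were described across 23 murine pancreatic ductal adenocarcinoma (PDAC) cell lines. Members were the probe sets whose platform annotation gives only 1 of these symbols, in all 17 of the 45037 probe sets analysed. Per gene, the probe set with the highest mean over the 23 lines was used and the others served as a check, so that 8 of 18193 genes with a symbol of their own are described. Untreated low-passage lines were profiled on Affymetrix mouse genome arrays, 1 array per line, and each value is a log2 signal of a probe set, where a difference of 1 is a 2-fold change. By the prefix of their names 12 lines came from primary tumors (PPT) and 11 from metastases (ASC, B, HEP, LN and PUL), and by their numbers, which name the mouse after an m here, they came from 14 mice.

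All lines came from mice in which Cre recombinase switches on tumor alleles by removing a stop cassette. The study lists a genotype for 13 lines. Cre came from Ptf1a Cre/+ in 10 of them and from Pdx1-Cre in 3 (PPT-3250, PPT-6051 and B-6051). Both drivers are named after genes described here. LSL-p53 R172H/+, a mutant Trp53 allele, is listed for 6 lines of 4 mice and no Trp53 allele for 7 lines of 7 mice. Reporter alleles are listed for 7 of the 13 lines, LSL-PCNA ATG-fLuc/+ or LSL-PCNA IRES-fLuc/+ in 4 and LSL-R26 Tva-lacZ/+ in 5. For the 10 lines of mice m5123, m15272 and m53631 neither the driver nor further alleles were listed. In the study's grouping 9 lines had a high and 14 a low IC50 value for Bez235, a dual inhibitor of PI3K and mTOR. No wild-type pancreas was analysed here, so that a level is set against other tumor lines and against the background of its own array.

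Transcription factors of this group are switched on in sequence while the foregut forms the pancreas. FOXA1, FOXA2 and the GATA factors are pioneer factors that open chromatin in the endoderm, PDX1 marks the pancreatic field, PTF1A drives pancreatic and later acinar fate, SOX9 keeps progenitors and ducts, and HNF4A is a nuclear receptor of epithelia of the liver, gut and pancreas. In PDAC, GATA6, HNF4A and FOXA factors are known as markers of the classical or progenitor-like state of the tumor cell.

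RefSeq promoters (GRCm38.p6) of 5 of the 8 genes were searched, with 8 start sites, and Sox9, Gata4 and Gata6 were not included. The starts of Hnf4a, Foxa1, Foxa2 and Pdx1 are shown first, because their levels differed most between the lines among these 5 genes. The 250 bases before the start are given 5′ to 3′ on the gene's strand. Capitals mark matches, on either strand, to the forkhead core TGTTTNC, the GATA site AGATAA and the HNF4 core CAAAGTCC. Hnf4a has an upstream start (chr2:163506607-163506856, plus strand) and a downstream start 40298 bases away (chr2:163546905-163547154, plus strand). The other windows are that of Foxa1 (chr12:57546112-57546361, minus strand), the most downstream of the 3 Foxa2 starts (chr2:148045465-148045714, minus strand) and that of Pdx1 (chr5:147269847-147270096, plus strand).
Hnf4a upstream start: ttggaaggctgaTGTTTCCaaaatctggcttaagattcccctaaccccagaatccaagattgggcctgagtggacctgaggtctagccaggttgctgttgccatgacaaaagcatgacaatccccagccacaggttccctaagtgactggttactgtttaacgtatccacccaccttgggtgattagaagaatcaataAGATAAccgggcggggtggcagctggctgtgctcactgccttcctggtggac
Hnf4a downstream start: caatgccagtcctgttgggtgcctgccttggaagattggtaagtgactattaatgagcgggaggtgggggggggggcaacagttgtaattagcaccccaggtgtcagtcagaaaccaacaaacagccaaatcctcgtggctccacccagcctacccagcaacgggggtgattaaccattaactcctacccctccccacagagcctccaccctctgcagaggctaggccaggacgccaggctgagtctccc
Foxa1: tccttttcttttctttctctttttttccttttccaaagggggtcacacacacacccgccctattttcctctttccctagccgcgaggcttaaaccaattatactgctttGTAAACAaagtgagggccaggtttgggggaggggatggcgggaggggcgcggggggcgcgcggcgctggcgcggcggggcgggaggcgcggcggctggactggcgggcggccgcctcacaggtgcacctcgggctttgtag
Foxa2: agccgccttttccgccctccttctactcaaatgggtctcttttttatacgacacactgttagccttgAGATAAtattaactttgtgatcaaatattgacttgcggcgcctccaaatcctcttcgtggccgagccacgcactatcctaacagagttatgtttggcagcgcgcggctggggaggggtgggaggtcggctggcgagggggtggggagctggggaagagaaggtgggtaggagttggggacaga
Pdx1: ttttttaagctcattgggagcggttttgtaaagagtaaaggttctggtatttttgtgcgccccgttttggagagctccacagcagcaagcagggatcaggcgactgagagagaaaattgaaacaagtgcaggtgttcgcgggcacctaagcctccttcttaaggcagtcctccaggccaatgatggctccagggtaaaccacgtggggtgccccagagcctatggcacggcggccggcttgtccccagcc
The upstream Hnf4a window held a forkhead core 238 and a GATA site 52 bases before the start. The Foxa1 window held a forkhead core at 141 and the Foxa2 window a GATA site at 183. No matches overlapped. Of 32851 promoter windows of this length, 17.8% held the forkhead core, 9.99% the GATA site and 1.2% the HNF4 core. The letters of the 3 motifs were not found in the downstream Hnf4a window, in the Pdx1 window, in that of Ptf1a or before the other Foxa2 starts.

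To judge whether a factor was measured at all, each value was set against a reference level of its own array, the 95th percentile of 80 probe sets of olfactory and vomeronasal receptors. This level lay between 3.25 and 3.79, and the array medians lay between 3.58 and 3.89. A signal above the reference level can thus still be weak. With the array median as the level, Gata6 and Hnf4a were above it in 21 lines, Foxa1 in 18 and Gata4 in 17. For the other factors the counts given below did not change. The share of all probe sets above the reference level was not computed. The label of pancreatic cancer cells was checked with epithelial and ductal markers. Cdh1 (E-cadherin) was above the reference level in 21 lines, the keratin genes Krt8 in 23 and Krt18 and Krt19 in 22. The ascites line ASC-5193 went against the label in part, with Krt18 at 2.46, Krt19 at 2.87, Krt7 at 2.09 and Cdh1 at 2.75. None of these was above its reference level, while Dcn (decorin, a matrix proteoglycan of fibroblasts) lay at 11.53. Krt8 had its lowest signal in this line, 3.44 against a reference level of 3.31 and a median of 13.09 over the lines. In this line 3 of 11 epithelial, 2 of 5 ductal and 5 of 6 fibroblast genes were above that level. The ductal gene Cftr lay at 5.98 and the epithelial gene Elf3 at 4.76, whereas the fibroblast gene Lum lay at 2.38. PPT-3250 also lay low in Cdh1 with 2.22 but kept Krt8 at 12.56 and Krt18 at 12.47. Of the 4 leukocyte and 4 endothelial markers measured, the defining genes Ptprc (CD45), Pecam1, Cdh5 and Tek were above the reference level in 0 of 23 lines, whereas Csf1r, Cd14 and Kdr were above it in 23 and Cd3e in 22. The mean of the leukocyte list ranged from 4.04 to 5.62 and that of the endothelial list from 2.53 to 3.12. Several results that rest on ASC-5193 or PPT-3250 are given with and without them. The likeness of other genes to a factor and the correlations within sets of lines are not.

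Pdx1, the homeodomain factor that marks the early pancreas, was high in 21 lines and not above the reference level in 2. In RNA of a whole culture, fewer cells of a type and less RNA per cell cannot be told apart. Pdx1 lay at 2.09 in PPT-3250 and 2.22 in ASC-5193, against 6.84 in PPT-5486, the next line, and 9.04 in LN1-15272, the highest. The gap between both lines and the others was 4.62, and the other 21 lines had a median of 8.49. The second Pdx1 probe set gave the same division, with both lines below and 21 lines above the reference level. PPT-3250 is a primary tumor line made with Pdx1-Cre, and ASC-5193 an ascites line made with Ptf1a Cre/+ and p53 R172H, so that the lines share neither the site nor the driver.

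Ptf1a, the acinar fate factor, was not above the reference level in any of the 23 lines. Its values lay between 2.09 in B-53631 and 3.08 in PPT-16992, with a median of 2.34 and an SD of 0.209, below the median SD of 0.281 over all probe sets. Ptf1a is measured by 1 probe set here, and no line or tissue known to express it was on these arrays, so that its sensitivity could not be checked.

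Sox9, the factor of pancreatic progenitors and ducts, was above the reference level in all 23 lines. It ranged from 5.31 in HEP2-53631 over a median of 7.28 to 8.13 in PPT-5486. Both lines without a Pdx1 signal lay within this range, with 6.70 in PPT-3250 and 7.69 in ASC-5193. The 6 lowest lines were the 4 of mouse m53631, at 6.24, 6.03, 5.53 and 5.31, PPT-5671 with 5.85 and PPT-6051 with 6.24. A second probe set correlated with the first with r = 0.951 across lines and was likewise above the reference level in 23 lines, while the remaining probe set lay below it in 23. Over the 23 lines Sox9 gave r = -0.41 with the mean of the ductal genes and 0.624 with that of the mesenchymal genes. Its level is thus not read as ductal identity here.

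Hnf4a had the largest SD of the 8 factors, 2.81. Its signal lay between 3.14 and 4.67 in 7 lines, PPT-16992, ASC-5193, PPT-3250, ASC-53909, PPT-5320, PPT-15272 and PPT-17728. In the other 16 lines it lay between 8.84 in PPT-5486 and 10.73 in PPT-3107, and a gap of 4.17 separated both sets of lines. By this probe set 22 lines lay above the reference level, since 6 of the 7 exceeded it slightly. By 2 of the 3 other Hnf4a probe sets the same division fell on the reference level itself, with 16 lines above and 7 not above it. Their lowest values were 1.11 in ASC-53909 and 1.74 in PPT-15272. The remaining probe set varied little, with an SD of 0.327, and was above the reference level in 23 lines.

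**Figure D1:**
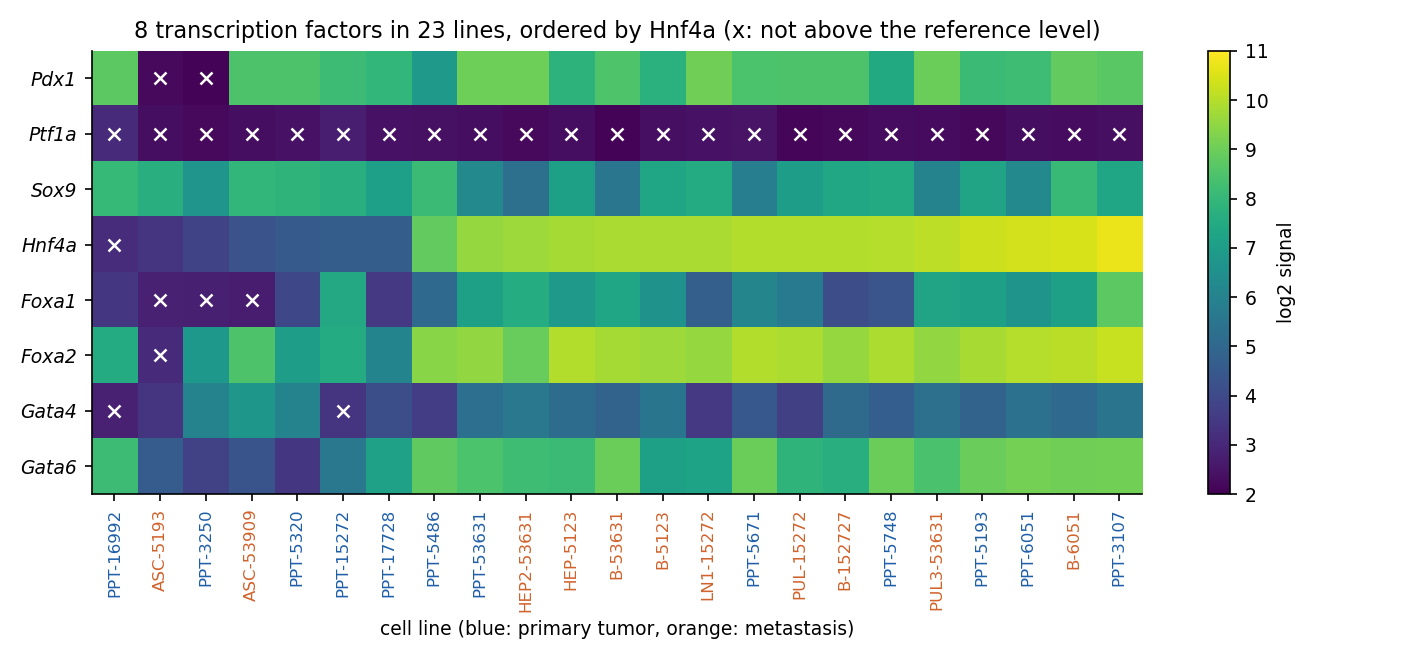
Log2 signals of the 8 transcription factors (rows) in the 23 lines (columns), ordered by Hnf4a from 3.14 in PPT-16992 to 10.73 in PPT-3107. White crosses mark values not above the reference level of the array. Ptf1a is crossed in all lines and Pdx1 in ASC-5193 and PPT-3250, and the 7 lines on the left with Hnf4a at or below 4.67 have lower Foxa2 than the 16 others.

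The forkhead factors followed Hnf4a to different degrees. Foxa2 lay between 8.91 and 10.25 in the 16 lines with Hnf4a at 8.84 or more. It lay at 3.11 in ASC-5193, where it was not above the reference level, and between 6.05 in PPT-17728 and 8.47 in ASC-53909 in the other 6 lines. The ranges did not overlap, but how many of all probe sets divide these lines likewise was not counted. Among 4749 genes Foxa2 ranked 82nd in likeness to Hnf4a. Foxa1 ranged more evenly, from 2.72 in ASC-53909 to 8.72 in PPT-3107 with a median of 6.10. It was not above the reference level in ASC-53909, PPT-3250 and ASC-5193, which lay at 2.72, 2.79 and 2.81. Foxa1 lay at 7.44 in PPT-15272 although Hnf4a was at 4.64 there, and at 4.13 in B-152727, 4.37 in PPT-5748 and 4.71 in LN1-15272 although Hnf4a was between 9.86 and 10.00 in them.

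Of the GATA factors, Gata6, an endodermal pioneer factor, was above the reference level in all 23 lines by its main probe set but fell into a low and a high range. It lay at 3.43 in PPT-5320, 3.76 in PPT-3250, 4.34 in ASC-53909, 4.63 in ASC-5193 and 5.61 in PPT-15272. In the other 18 lines it lay between 7.12 in B-5123 and 9.12 in PPT-6051. These 18 lines include PPT-16992 with 8.16 and PPT-17728 with 7.14, which had Hnf4a at 3.14 and 4.67. Of the other Gata6 probe sets, 1 correlated with it with r = 0.962 and was above the reference level in 22 lines, and 1 was above it in 0. Gata4, a paralog that acts in the early endoderm, ranged from 2.84 in PPT-16992 over a median of 5.09 to 6.75 in ASC-53909 and was not above the reference level in PPT-16992 and PPT-15272. The line with the highest Gata4 thus had the lowest Foxa1 and one of the 5 lowest Gata6 levels. The second Gata4 probe set was above the reference level in 1 line and correlated with the first with r = 0.222, so that Gata4 rests on 1 probe set.

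Taken line by line, the 7 lines with low Hnf4a were not alike. ASC-5193 had Pdx1, Foxa1 and Foxa2 not above the reference level, Gata6 at 4.63 and Gata4 at 3.35, and kept Sox9 at 7.69. PPT-3250 shared low Pdx1, Hnf4a, Foxa1 and Gata6 with it but kept Foxa2 at 6.80 and Gata4 at 6.01. PPT-5320 and ASC-53909 kept Pdx1 at 8.5 and 8.49 and Gata4 at 6.03 and 6.75, with Gata6 at 3.43 and 4.34. PPT-16992 and PPT-17728 kept Pdx1 at 8.72 and 7.97 and Gata6 at 8.16 and 7.14, with Foxa1 at 3.44 and 3.51. PPT-15272 kept Pdx1 at 8.16, Foxa1 at 7.44 and Foxa2 at 7.53, with Gata6 at 5.61 and Gata4 at 3.34. In the other 16 lines Pdx1, Sox9, Hnf4a, Foxa1, Foxa2, Gata4 and Gata6 were all above the reference level. Gata4 exceeded it only slightly in LN1-15272 (3.50 against 3.41), PUL-15272 (3.72 against 3.48) and PPT-5486 (3.65 against 3.26). These lines are thus hardly set apart in Gata4 from PPT-15272, which was not above its level.

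**Figure D2:**
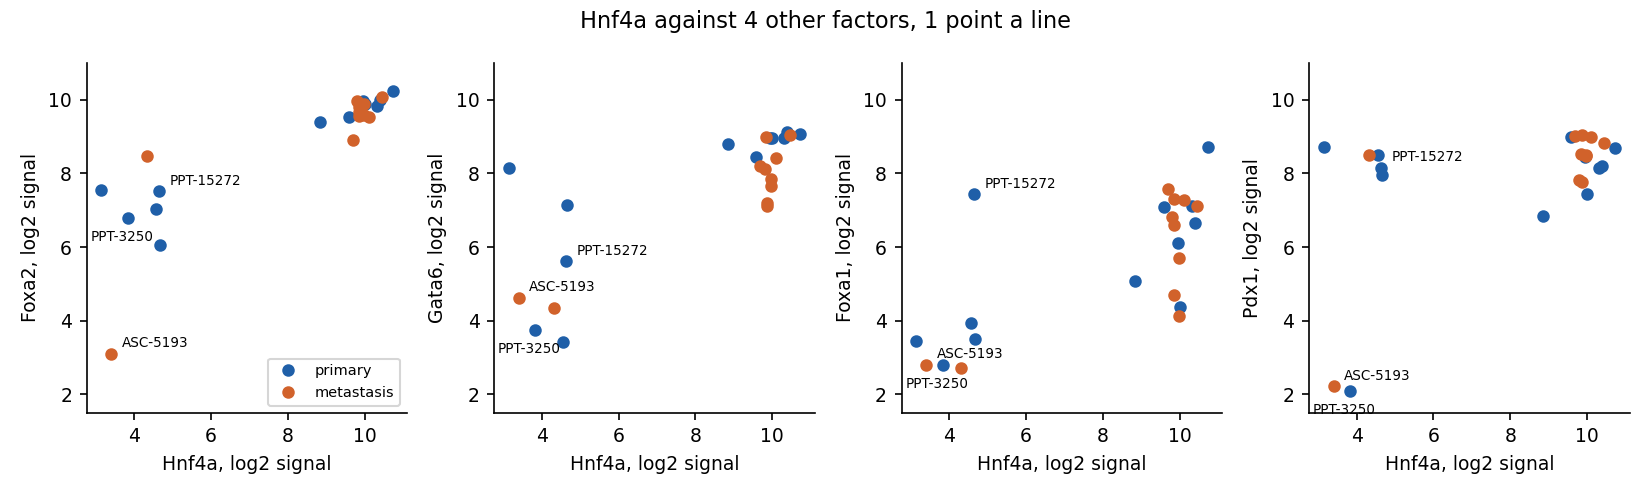
Foxa2, Gata6, Foxa1 and Pdx1 (y axes, log2 signal) against Hnf4a (x axes, log2 signal), 1 point a line, with primary tumor lines in blue and metastasis lines in orange. The 16 lines with Hnf4a at 8.84 or more form a compact cloud with Foxa2 at 8.91 or more, and PPT-15272 stands apart in the Foxa1 panel at 7.44.

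Since Hnf4a divides the lines, its relation to the other factors was described on each side of the gap. These lines share mice, and the coefficients are a description with no test. Over the 16 lines with high Hnf4a, of 9 mice, Hnf4a and Foxa2 correlated with Pearson's r = 0.654 and Spearman's rho = 0.672, Hnf4a and Gata6 with r = 0.265 and rho = 0.485, and Hnf4a and Foxa1 with r = 0.415 and rho = 0.165. Over the 7 lines with low Hnf4a, each of another mouse, the same pairs gave r = 0.352, -0.257 and 0.469 and rho = -0.107, -0.071 and 0.536. The 7 lines include ASC-5193 and PPT-3250, and these coefficients were not computed without them. For Pdx1 and Foxa2, r was 0.67 over 23 lines and 0.018 without ASC-5193 and PPT-3250, and that of Pdx1 and Gata6 was 0.529 and -0.061, so that these relations rest on both lines. Sox9 gave r = -0.14 with Pdx1 over the 23 lines and -0.358 without ASC-5193 and PPT-3250. Over the 23 lines it gave -0.259 with Foxa2, -0.27 with Gata4, -0.337 with Gata6 and -0.452 with Foxa1. Gata4 and Gata6 gave r = -0.192, and -0.554 over 1 mean per mouse. In all, 28 pairs were computed.

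Genes whose pattern over the 23 lines was most like that of a factor were taken from 4749 genes with an SD of at least 0.5, with Pearson's r as the measure of likeness. For Hnf4a these were Myrf (r = 0.966), Anxa13 (0.963), Parm1 (0.959), Stard10 (0.948) and Vil1 (0.946), the last of which encodes the microvillus protein villin, and Foxa2 ranked 82nd. Artn, which encodes the ligand artemin, ran most against it with r = -0.969. These values were taken across the Hnf4a gap and not on either side of it. For Foxa2 the nearest genes were Ezr (r = 0.942, rho = 0.765) and Krt19 (r = 0.907, rho = 0.554), and Hnf4a ranked 10th. ASC-5193 had the lowest signal of Foxa2, Ezr and Krt19, and r without this line was not computed. For Foxa1 they were Mal (0.923), AA986860 (0.877), AI661453 (0.867) and Muc1 (0.863), a ductal mucin. For Gata6 they were Plch1 (0.898) and Chmp4c (0.873), with Ifitm1 at -0.906. For Sox9 they were Fn1 (0.805), which encodes fibronectin, and Rhoc (0.782), and for Gata4 Nsun3 (0.731) and Tnni1 (0.693). For Pdx1, St6gal1 led with r = 0.876 but rho = 0.489, and Akr1c18 ran against it with r = -0.95 but rho = -0.356, and ASC-5193 had the lowest St6gal1 signal of the lines.

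Of 21 other transcription factors of the pancreas and foregut that were measured, 9 were above the reference level in all lines and 5 in none. The 4 with the largest SD were Sox2, Onecut2, Gata5 and Cdx2. Sox2, a factor of the anterior foregut and stomach, was above the reference level in 11 lines, at 10.79 in PPT-3250, 10.73 in ASC-5193 and 9.92 in PPT-16992. The other 4 lines with low Hnf4a had Sox2 at 5.23 to 7.55, and 4 lines with high Hnf4a had it at 6.52 to 7.98. Gata5, an endodermal GATA factor, lay between 3.52 and 4.14 in the 7 lines with low Hnf4a and between 3.98 and 8.27 in the others, with PPT-5671 and PPT-5748 at 3.98 and 4.12. Cdx2, an intestinal homeodomain factor, lay between 3.59 and 5.37 in the same 7 lines and between 4.35 and 9.62 in the others, so that the ranges overlapped. Onecut2, a cut homeodomain factor of the early pancreas, lay at 2.40 in ASC-53909, 3.03 in ASC-5193 and 3.11 in PPT-16992 and between 4.92 and 9.29 in the other lines. Nkx2-2, an endocrine factor singled out after its values were seen, was above the reference level in ASC-5193 with 6.36 and in no other line, and Iapp (islet amyloid polypeptide) likewise with 6.14.

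Markers of differentiated cells were read beside the factors. Ptf1a was not detected, and of the 6 measured acinar genes Cpa1, Cela2a and Gp2 were above the reference level in 0 lines, while Cela1 (an elastase) ranged from 3.47 to 8.98. Of the 7 endocrine genes, Gcg and Chga were above it in 0 lines, while Ins2 and Sst were above it in 23 but reached at most 5.21 and 4.5. Of the acinar genes, Cel and Ctrb1 were above it in 23 lines and reached at most 4.51 and 5.68. The mean of the epithelial genes varied with Hnf4a with 1 exception, but not every gene did. Krt8 lay at 12.81 in PPT-16992 with low Hnf4a and at 12.26 in PPT-5671 with high Hnf4a. The mean signal of 11 epithelial genes lay between 3.05 in ASC-5193 and 5.65 in PPT-5320 in 6 of the 7 lines with low Hnf4a, and between 6.99 and 8.95 in the 16 lines with high Hnf4a. The exception PPT-15272 had the highest mean of all lines, 10.0, with Cdh1 at 11.07, Cldn7 (a claudin of tight junctions) at 11.16 and Epcam at 11.70.

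On average, genes of the stomach and intestine lay lower in PPT-15272 than in the 16 lines with high Hnf4a. The mean of 11 such genes lay between 3.43 and 4.65 in the 7 lines with low Hnf4a, PPT-15272 with 4.0 among them, and between 4.56 in PPT-5748 and 7.75 in B-6051 in the 16 others. Lgals4, an intestinal galectin, lay at 5.46 in PPT-15272 and between 11.53 and 12.70 in LN1-15272, B-152727 and PUL-15272, lines of the same mouse. Apob (apolipoprotein B of liver and gut), counted here with the liver genes, lay at 2.36 in PPT-15272 and between 6.43 and 9.54 in these lines. Not every gene of the stomach and intestine was lower in PPT-15272. Tff1 lay at 6.89 there, against 6.34 in PPT-5671 and 6.69 in PPT-5748. Lgals4 lay at 6.48 in HEP-5123, a line with high Hnf4a. Of 6 fibroblast genes, PPT-15272 had 1 above the reference level, and the other 6 lines with low Hnf4a had 3 to 6, while the 16 lines with high Hnf4a had 0 to 5. PPT-5486, with Hnf4a at 8.84 the lowest of these 16, had 5 and the highest mesenchymal mean of the 23 lines, 9.33. Whether the fibroblast genes come from the tumor cells or from other cells in the culture was not tested.

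Lines of 1 mouse allow a comparison within the animal. Mouse m5193 gave the primary tumor line PPT-5193, with Pdx1 at 8.15, Hnf4a at 10.31, Foxa1 at 7.13, Foxa2 at 9.82 and Gata6 at 8.96, and the ascites line ASC-5193, with 2.22, 3.40, 2.81, 3.11 and 4.63. The ascites line was lower by 4.32 to 6.91 in these 5 factors. In mouse m15272 Hnf4a ran the other way, with 4.64 in the primary tumor line and 9.86, 9.98 and 9.98 in the lymph node, B and PUL lines. Foxa2 lay at 7.53 in the primary line and at 9.56, 9.58 and 9.88 in the metastases and Gata6 at 5.61 against 7.21, 7.66 and 7.86, while Foxa1 was higher in the primary line with 7.44 against 4.13 to 5.70. In mouse m6051 the difference of the metastasis from the primary line was largest in Sox9, which lay at 6.24 in PPT-6051 and 8.08 in B-6051, and Pdx1 followed with 0.62. In mouse m53631 it was largest in Sox9 with -0.62.

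**Figure D3:**
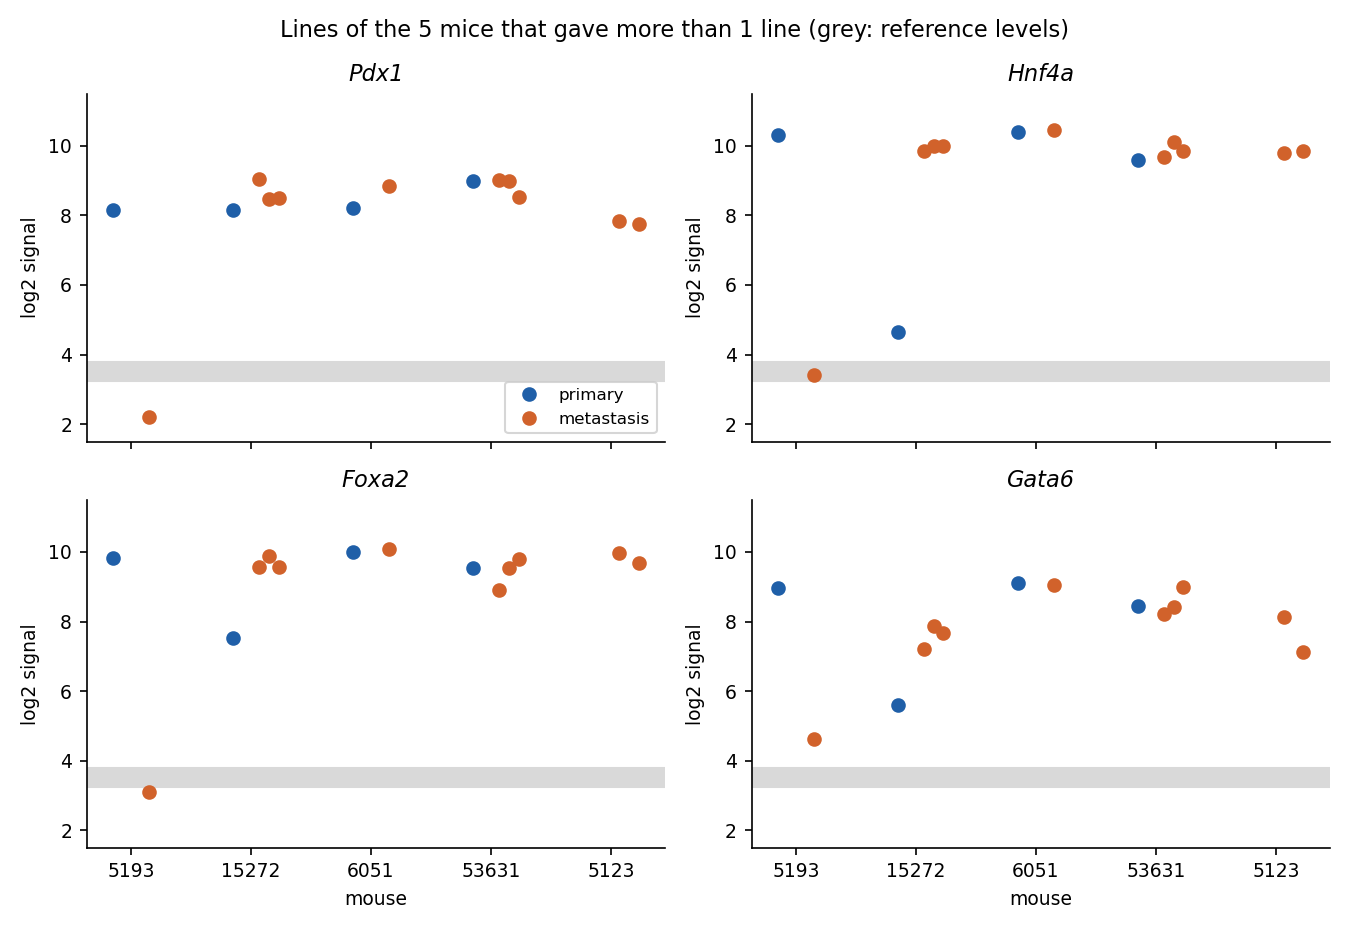
Log2 signals of Pdx1, Hnf4a, Foxa2 and Gata6 in the 14 lines of the 5 mice with more than 1 line, primary tumor lines in blue and metastasis lines in orange. The grey band spans the reference levels of the arrays from 3.25 to 3.79. Hnf4a is lower in the metastasis of mouse m5193, at 3.40, and in the primary line of mouse m15272, at 4.64.

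Whether lines of 1 mouse resembled each other was asked with limma's F test over the 14 lines of these 5 mice, adjusted by Benjamini-Hochberg across the whole array. Of all probe sets 2.94% differed between mice (1322 of 45037, 8644 at an unadjusted p under 0.05), and 0 of the 8 factors did, with 3 at an unadjusted p under 0.05. Sox9 came nearest with an F of 7.55 and a limma adjusted p of 0.0712, next to an SD of 0.54 within mice and of 0.702 among the mouse means. For Hnf4a the limma adjusted p was 0.635, with an SD of 2.24 within mice and 1.42 among mouse means. Without PPT-5193, mouse m5193 was represented by ASC-5193 alone and 6 of the 8 factors passed, all but Ptf1a and Hnf4a. In that fit 4901 of the 45037 probe sets passed, and ASC-5193 is assumed to vary like the lines of the other mice. Without PPT-6051 or B-6051 Sox9 passed, and without B-152727 Gata4 passed. Over 19 alternatives the adjusted p of Sox9 from limma ranged from 0.0108 to 0.161.

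Metastasis lines were compared with primary tumor lines with the mouse as a random block. By limma 0 of the 45037 probe sets passed at an adjusted p of 0.05, which is 0%, and 1649 had an unadjusted p under 0.05. Of the 8 factors 0 passed, and Ptf1a, at background level in both groups, was the 1 with an unadjusted p under 0.05. Hnf4a lay between 3.14 and 10.73 with a median of 9.22 in primary lines and between 3.40 and 10.45 with a median of 9.86 in metastasis lines, and the difference was 0.99 with a 95% interval from -1.28 to 3.27. For Pdx1 the medians were 8.19 and 8.49 and the difference was -0.01 with an interval from -1.53 to 1.5. The groups overlapped for each of the 8 factors. The intervals of Foxa1 (-1.68 to 1.26), Foxa2 (-1.38 to 1.53) and Gata6 (-1.71 to 1.28) were as wide, so that differences within them are not shown to be absent. Without ASC-5193 the difference was 0.74 in Pdx1 and 1.77 in Hnf4a, and 0 factors passed. With a fixed effect for each mouse, it was -0.96 in Pdx1, -1.46 in Foxa1 and 0.31 in Hnf4a, and 0 factors passed.

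**Figure D4:**
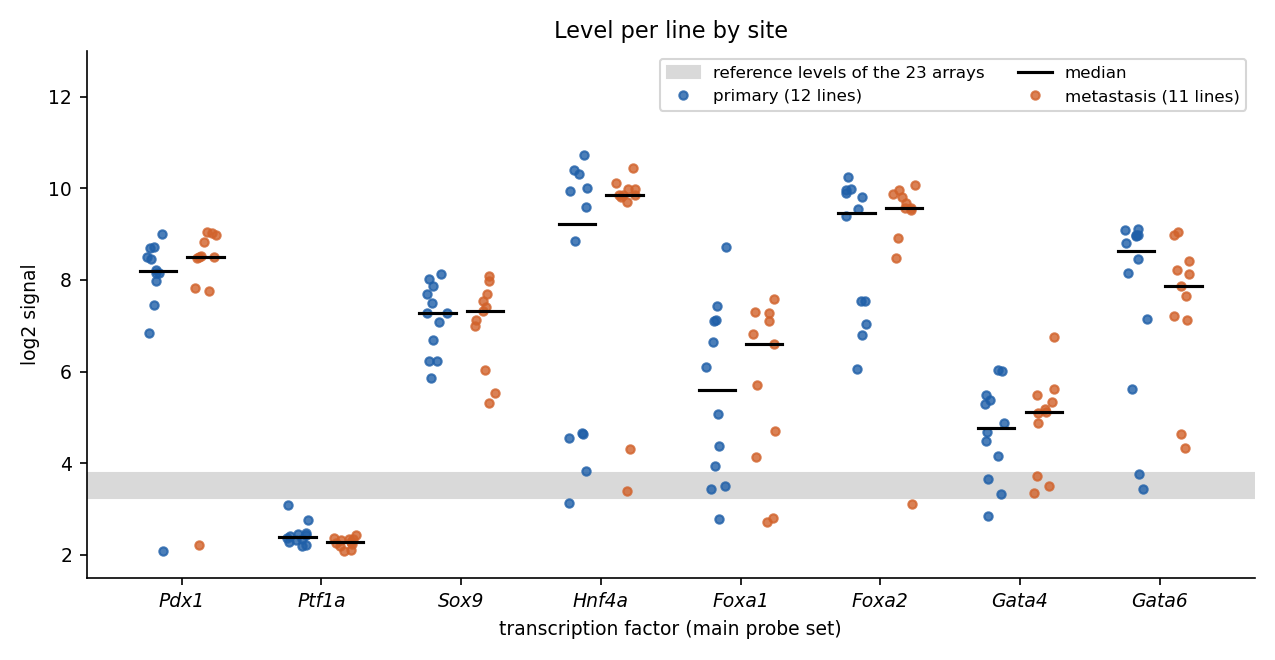
Log2 signal of each factor in the 12 primary tumor lines (blue) and the 11 metastasis lines (orange), 1 point a line, with the median of each group as a black bar and the reference levels of the arrays as a grey band from 3.25 to 3.79. The groups overlap for all 8 factors, and both hold lines with low Hnf4a.

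For the 13 lines with a listed genotype, lines with p53 R172H were compared with lines without a listed Trp53 allele. By limma 0.231% of the probe sets passed (104 of 45037, 5945 at an unadjusted p under 0.05) and 0 of the 8 factors. Hnf4a lay at 10.31, 10.39, 10.45, 10.73, 8.84 and, in ASC-5193, 3.40 in the 6 lines with R172H. In the 7 lines without it, Hnf4a lay at 3.14, 3.83, 4.32, 4.56, 4.67, 9.95 and 10.00. Thus 5 of 6 lines with R172H and 2 of 7 without it had high Hnf4a, and the groups overlapped.

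The difference in Hnf4a was 3.24 with a standard error of 1.46, a 95% interval from 0.10 to 6.38 and a limma adjusted p of 0.361. This fit counts each line as independent, although the 6 lines with R172H came from 4 mice and the 7 without it from 7. The interval may thus be too narrow. Foxa1 differed by 2.41 (standard error 0.825, interval from 0.63 to 4.19) with a limma adjusted p of 0.232, and lay between 2.81 and 8.72 with R172H and between 2.72 and 6.10 without it. Without ASC-5193 the adjusted p from limma was 0.0587 for Foxa1, with a difference of 3.10, and 0.125 for Hnf4a, with one of 4.36. Among the 10 Ptf1a-Cre lines the differences were 1.92 and 2.21, with adjusted p-values of 0.605 and 0.739 from limma. These values are the ends of the range over 20 alternatives for each gene. Gata6 differed by 1.88 and Foxa2 by 0.81, with adjusted p-values of 0.508 and 0.817 from limma. A reporter allele is listed for 1 of the 6 lines with R172H and for 6 of the 7 without it, so that Trp53 and reporter alleles cannot be told apart. Of the 21 other pancreas and foregut factors 0 passed, with a median difference of 0.09 against 0.00 over all probe sets, and of 11 epithelial genes 10 had a higher mean with R172H and 0 passed, with a median of 1.63.

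**Figure D5:**
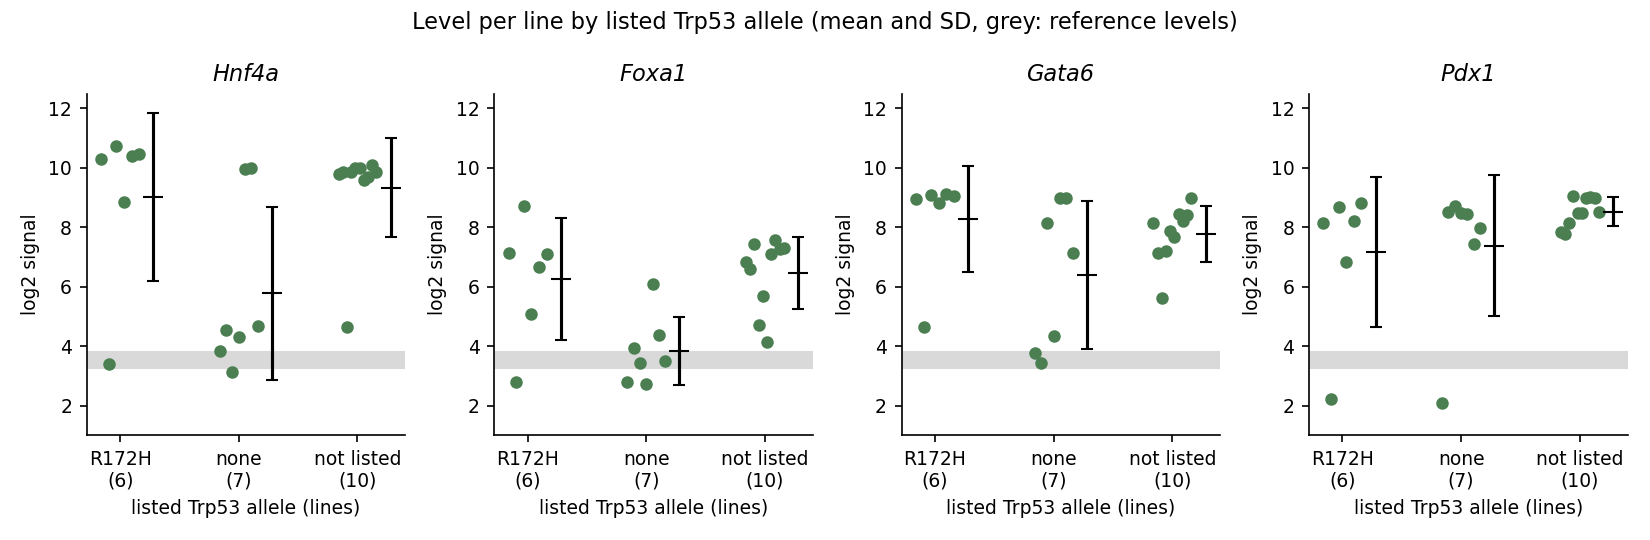
Log2 signal of Hnf4a, Foxa1, Gata6 and Pdx1 by the listed Trp53 allele, 1 point a line, for 6 lines with R172H, 7 with none listed and 10 without a listed genotype. Black bars give the mean and SD of the lines and the grey band the reference levels from 3.25 to 3.79. In Hnf4a 5 of the 7 lines with no listed allele lie at or below 4.67, against 1 of 6 with R172H.

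The 3 Pdx1-Cre lines, of 2 mice, were set against the 10 Ptf1a-Cre lines, of 9 mice, since the drivers are named after 2 of the genes described. By limma 0.0133% of the probe sets passed (6 of 45037, 2182 at an unadjusted p under 0.05) and 0 of the 8 factors, 0 also at an unadjusted p under 0.05. Pdx1 lay at 2.09, 8.21 and 8.83 in the Pdx1-Cre lines and between 2.22 and 8.72 with a median of 8.30 in the Ptf1a-Cre lines. The difference was -1.17 with a 95% interval from -4.27 to 1.92, and 0.97 without PPT-3250. Ptf1a lay between 2.22 and 2.32 in the Pdx1-Cre and between 2.20 and 3.08 in the Ptf1a-Cre lines, not above the reference level in any.

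Lines with high and low Bez235 IC50 values overlapped in each of the 8 factors. The groups hold the 23 lines analysed here and are not the whole set of lines that the study grouped. By limma 0 of the 45037 probe sets passed, which is 0%, with 1803 at an unadjusted p under 0.05, and 0 of the 8 factors passed at either threshold. Hnf4a lay between 3.40 and 10.00 with a median of 9.86 in the 9 lines with high values and between 3.14 and 10.73 with a median of 9.77 in the 14 lines with low values. The difference was -0.29 with a 95% interval from -2.71 to 2.12. Gata6 differed by -0.74, with an interval from -2.28 to 0.81 and a limma adjusted p of 1.00, and by -0.44 without ASC-5193. Of the 2 lines without a Pdx1 signal, ASC-5193 is in the high and PPT-3250 in the low group.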

How the data were processed

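RNA of 23 untreated, low-passage PDAC lines was hybridized to 1 Affymetrix mouse genome array each. The deposited log2 values were normalized by the authors and used as they stand. Sources differ on the method (variance stabilization in the supplementary methods, RMA in the submitters' processing notes), which the values do not settle. Of 45101 probe sets 64 controls were left out. Platform annotation gave 1 symbol for 34945 probe sets, several for 932 and none for 9160, and only those with 1 symbol were named. Array medians lay between 3.58 and 3.89, 0 pairs of arrays were identical, and no depth applies to arrays.

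Site was read from the prefix of each name and the mouse from its number, with B-152727 taken as a line of mouse m15272. The prefix B is not explained and was counted as metastasis. Genotypes and Bez235 groups come from the study's supplementary list, looked up by line name. Where nothing else is known, p-values measure the spread between lines, some of which share a mouse.

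Comparisons were fitted over all probe sets with limma 3.58.1 in R 4.3.3 (lmFit, eBayes, Benjamini-Hochberg at 0.05), by site with the mouse as a random block (correlation 0.243) and otherwise without covariates. The scripts were tested on simulated data. Alternatives were quantile normalization, median centring, a filter on dim probe sets, other variance models, other uses of the mouse, other probe sets and fewer lines. Leaving out single lines and the correlations on each side of the Hnf4a gap were chosen after seeing the data. Members and gene lists were chosen with earlier results of these data known. By plan, named genes were the 8 members and up to 4 genes per list with the largest SD. The plan added the 5 most and 3 least similar genes by Pearson's r per member with an SD of at least 0.5, some of which are printed. Other named genes, among them several acinar, endocrine and epithelial genes, fall outside this plan. They serve as checks of the label or were chosen with their values known. Some items are not reported here. Correlations and numerical summaries used Python 3.11.15 with pandas 2.3.3.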

Additional observations from a re-analysis of the deposited data

Results flagged for a closer look

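Over all factors, 56 combinations of a factor and a set of 4 to 10 lines were examined. In 18 of them a line had a gap to the others above Dixon's critical value. Chance gives about 1 in 20 for normally distributed values. Hnf4a fell into a low and a high range, so that no excess over chance is read from the 18. The sets share lines, so that the 18 are not independent. ASC-5193 stood apart as the lowest line in Pdx1 (2.22) among the high Bez235, the R172H and the Ptf1a-Cre lines. It was also lowest in Foxa2 (3.11) among the high Bez235 and R172H lines, and in Hnf4a (3.40) and Gata6 (4.63) among the R172H lines. PPT-3250 stood apart in Pdx1 (2.09) among the lines without a listed Trp53 allele.

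PPT-15272 stood apart in Hnf4a (4.64) and Foxa2 (7.53), both among the lines without a listed genotype and within mouse m15272, and in Ptf1a (2.76) as the highest among the former. Ptf1a was highest in PPT-16992 (3.08) among the lines without a listed Trp53 allele and the Ptf1a-Cre lines, below the reference level. Sox9 was lowest in PPT-5671 (5.85) among the high Bez235 and the Ptf1a-Cre lines. Pdx1 in B-53631 (8.53) lay below the other lines of its mouse.

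In the 4 mice with both a primary and metastasis lines, differences between metastases and the primary line had opposite directions, and none of these contrasts between mice was tested. For Hnf4a the difference was -6.91 in mouse m5193, 5.30 in mouse m15272, 0.06 in mouse m6051 and 0.29 in mouse m53631. For Foxa2 it was -6.71, 2.14 and 0.08 in mice m5193, m15272 and m6051, and for Gata6 -4.33, 1.97 and -0.07 in the same mice. For Pdx1 it was -5.93, 0.51 and 0.62 in these mice and for Gata4 -1.52, 0.77 and -0.28. Foxa1 was lower in the metastases of mice m5193 and m15272, with -4.32 and -2.59, and higher in those of mice m6051 and m53631, with 0.46 and 0.29. Sox9 was higher in the metastases of mice m5193 and m6051, with 0.42 and 1.84, and lower in those of mice m15272 and m53631, with -0.37 and -0.62. Ptf1a, at background level, gave 0.13, -0.51, -0.03 and -0.16 in mice m5193, m15272, m6051 and m53631.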

How the results depend on the processing

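In the comparisons by site, Bez235 group, Trp53 allele and Cre driver, 0 of the 8 factors passed under every alternative run, and the factors called between mice ranged from 0 to 6 with 1 line left out. Over all probe sets the 104 calls by Trp53 allele became 56 with median centring, 53 with trended and robust variances, 38 with a random mouse block, 12 with 1 mean per mouse and 3 among Ptf1a-Cre lines, and 10 to 216 with 1 line left out. The 6 calls by Cre driver became 2 with 1 mean per mouse and 1 to 87 with 1 line left out. The 1322 between mice became 3983 over all 23 lines and 533 to 4901 with 1 line left out. The number of lines above the reference level was 0 by 1 other probe set of Sox9, 1 by that of Gata4 and 0 by 1 of Gata6.

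Differences that did not pass changed direction as follows. By site, Pdx1 was 0.0237 with quantile normalization, 0.0102 with centring and 0.28 without a mouse block, and Foxa1 0.18 without the block. With the mouse as a fixed block Sox9 was 0.16, Foxa2 -0.72 and Gata4 -0.13, and with 1 mean per mouse Sox9 was 0.16 and Foxa2 -0.22. Foxa2 was -0.0234 over bright probe sets and -0.37 without the prefix B. By Bez235 group, Sox9 was -0.0155 and Gata4 0.0732 with 1 mean per mouse, and Ptf1a 0.0474 with site as a covariate and 0.0104 without B-152727. By Trp53 allele, Foxa2 was -0.0158 among Ptf1a-Cre lines. By Cre driver, Gata6 was -0.28 with a random mouse block and -0.88 with 1 mean per mouse. The cause was not tested.

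With 1 line left out, by site (ASC-5193 or PPT-3250) Pdx1 ranged from -0.43 to 0.74, Foxa1 from -0.41 to 0.18, Foxa2 from -0.0662 to 0.87 and Gata6 from -0.49 to 0.19. By Bez235 group, Pdx1 ranged from -1.02 to 0.10, Hnf4a from -0.64 to 0.28 and Foxa2 from -0.36 to 0.49. By Trp53 allele, Pdx1 ranged from -1.11 to 0.76 and Sox9 from -0.0733 to 0.41, and by Cre driver Pdx1 from -2.40 to 0.97, Foxa1 from -0.062 to 2.10 and Gata6 from -0.84 to 1.84. Replicate numbers only name the lines, and the paired fit by site used the mouse as a fixed block, where Pdx1 was -0.96, Foxa1 -1.46 and Hnf4a 0.31. Hnf4a by site was 0.40 without the prefix B and 0.72 to 1.77 with 1 line left out, and Gata6 by Bez235 group -1.05 to -0.44. With 1 array a line, culture and array error cannot be told apart from differences between lines.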
